A study of Rattus norvegicus with 70 samples.

Results

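Hydroxysteroid dehydrogenases and steroid reductases were followed through 5 organs of Sprague-Dawley rats that had been exposed to bisphenols from fetal life to postnatal day 63. The 7 genes are Hsd17b2, Hsd17b6, Hsd17b11, Srd5a1, Akr1d1, Akr1b7 and Akr1c2, each found by its symbol as 1 row among the 17048 gene rows of the count table. The group was put together as enzymes that inactivate steroids, and chosen by values from these same libraries, their levels and their differences between treatments, so differences between treatments are given below as a description of where each gene lies among all rows and not as independent evidence. The vehicle levels of both sexes are among those levels, so the comparison of untreated females with untreated males is also given as a description only.

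Dams, of an outbred strain, were given the vehicle, BPA (bisphenol A) or several bisphenols at once (Mix). Their dosing began on gestational day 6 and ended on lactation day 6, and the pups were then dosed directly from postnatal day 7 to 63. The total daily dose was 500 mg/kg in dams and 250 mg/kg in pups in both treated groups. The dams' mixture was made of 160 mg/kg/day BPA, 160 mg/kg/day bisphenol F and 180 mg/kg/day bisphenol S, and no group received F or S alone in the libraries analysed here. QuantSeq libraries, which count the 3′ ends of messenger RNA, were made from liver, kidney and thyroid of both sexes, from testis and from ovary, giving 70 libraries in 24 groups. Every group holds 3 rats except the female kidney, where vehicle and BPA have 2. Litters were culled on postnatal day 4 to 3 pups per sex and dam, and the labels do not say which rats share a dam, so litter and treatment cannot be told apart and each p-value treats a rat as independent. Codes in the labels tie the organs of a rat to each other.

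These enzymes set how much active steroid a tissue sees. The dehydrogenases move hydrogen between the hydroxyl and keto forms of a steroid, and the reductases saturate the first ring of the molecule. In the rat liver many steroid-metabolising genes differ between the sexes, under the control of the pattern in which growth hormone is secreted, while in the gonads the same families shape the balance of androgen, estrogen and progestogen. Inactivation is not their only role, since 5alpha-reduction of testosterone makes the stronger androgen dihydrotestosterone and the Akr1b enzymes also reduce aldehydes.

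Libraries held 4803807 to 10929957 counts. Each organ was recognised by its own marker: albumin (Alb) reached 42453 to 124804 CPM (counts scaled to a common library size) in liver and at most 2539 CPM elsewhere, and thyroglobulin (Tg) 27618 to 101906 CPM in thyroid and at most 46.6 CPM elsewhere. The sperm gene Tnp1, at 33239 CPM or more in testis, reached up to 9753 CPM in another organ, so not every library was free of foreign RNA. Levels below are CPM scaled over all libraries of an organ, values are listed in the order of the replicate numbers, and they are compared within a gene and not between genes. Because whole organs were measured, fewer cells of a type and less RNA per cell cannot be told apart. Log2 fold changes carry the standard error (SE) of edgeR's quasi-likelihood test, and adjusted p-values are Benjamini-Hochberg values over every row tested in that comparison, with a gene said to have passed when the adjusted p was below 0.05.

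Over the 24 treatment comparisons, 8 results for these genes passed, in male liver and ovary only, where 0.892% of all rows tested over those comparisons passed. In male liver 1 of the 6 genes tested passed in BPA against vehicle (0.228% of all rows), 1 in Mix against vehicle (0.321%) and 1 in Mix against BPA (0.0103%, a single row). In ovary 2 of 4 genes tested passed in BPA against vehicle (6.79%), 3 in Mix against vehicle (9.12%) and 0 in Mix against BPA (0.212%). In kidney, testis, thyroid and female liver no gene of the group passed. The share of all rows that passed there was 0.136% (BPA), 0.0273% (Mix) and 2.93% (Mix against BPA) in male kidney, 0.775% for Mix against BPA in testis, 0.419% (BPA) and 0.0523% (Mix) in female liver, 0.00899% for Mix in female thyroid and 0% in the rest. In the 19 comparisons with 0 edgeR calls among these genes, 19 of 82 single tests had an unadjusted p below 0.05, and DESeq2 called 8. Over all rows, the number below that level in edgeR differed between those 19 comparisons. It ran from 551 of 11119 (Mix against vehicle, male thyroid) to 2561 of 11127 (Mix against vehicle, female thyroid). The share of all rows called by DESeq2 is not reported here. These shares are printed because the genes were picked with the same contrasts in view, and nothing further is read from them.

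**Figure D1:**
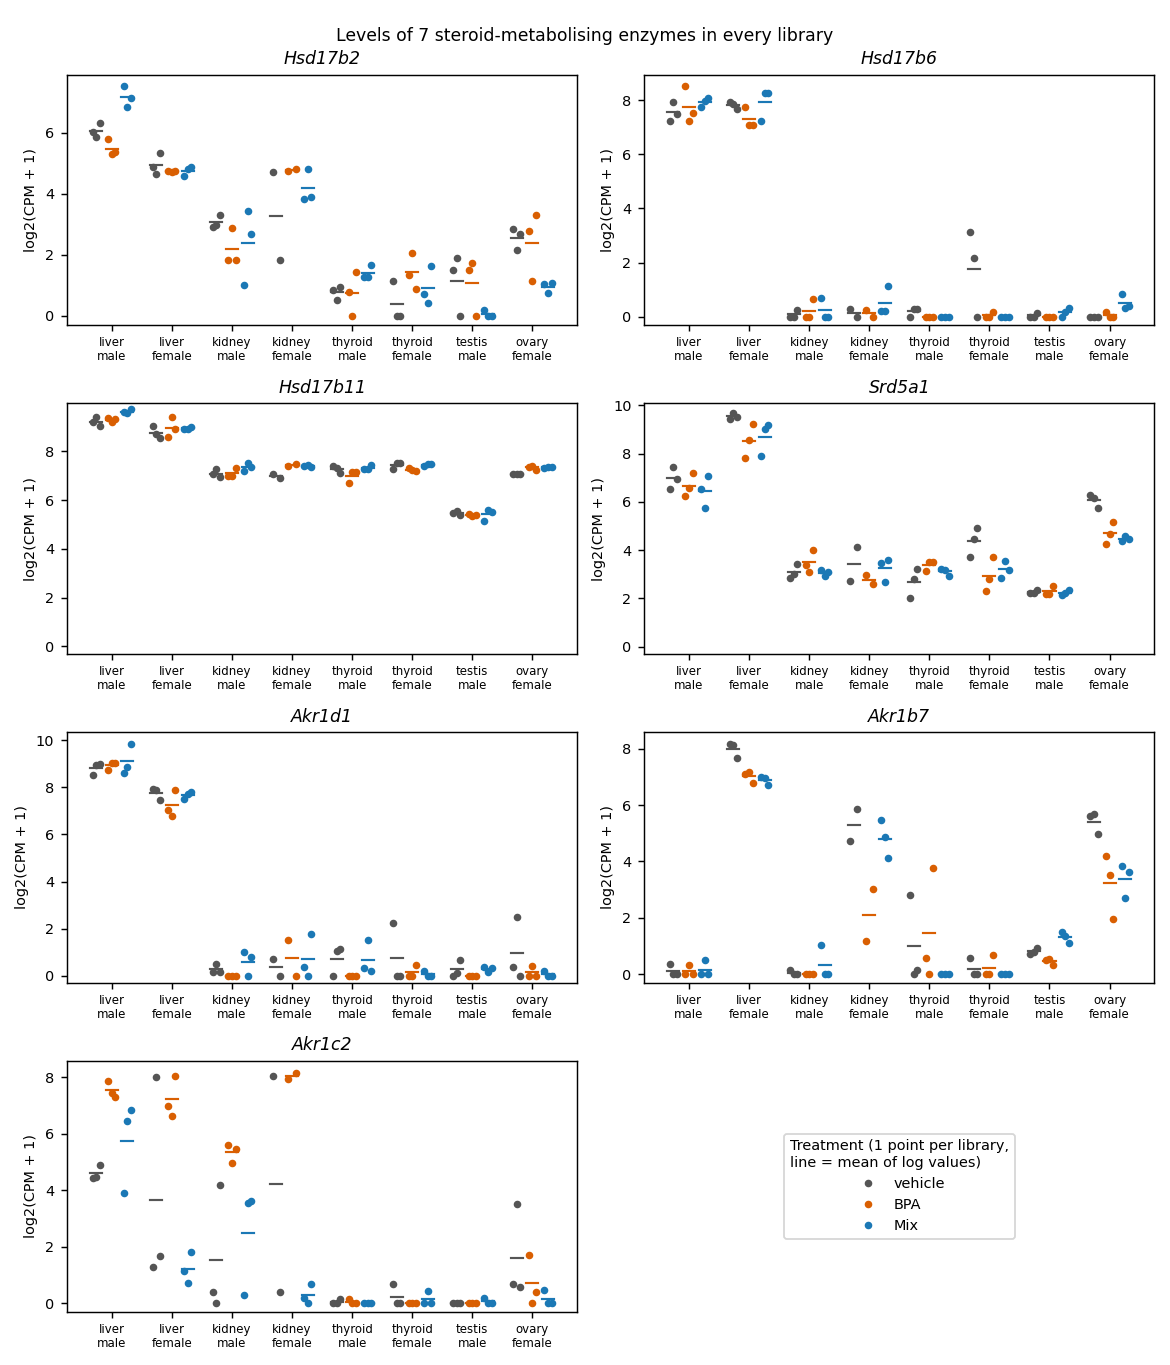
Level of each of the 7 genes in every library, as log2(CPM + 1) on the vertical axis, by organ and sex on the horizontal axis; each point is a library, colours are vehicle, BPA and Mix, and lines are means of the log values. Hsd17b6 and Akr1d1 stand high in liver alone, Hsd17b11 in every organ, and Akr1c2 falls into high and low libraries within single groups.

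Among the oxidising 17beta-hydroxysteroid dehydrogenases, Hsd17b2 turns estradiol into estrone and testosterone into androstenedione. In vehicle rats its order ran from male liver (66.8 ± 11.1 CPM, SD, n = 3) through female liver (30.7 ± 7.86 CPM, SD, n = 3), female kidney (25.6 and 2.56 CPM), male kidney (7.42 ± 1.37 CPM, SD, n = 3) and ovary (5.01 ± 1.38 CPM, SD, n = 3) to testis and thyroid. Female liver overlapped with female kidney, female kidney with male kidney, and testis with both thyroids. Male liver did not overlap with female liver, male kidney with ovary, nor ovary with testis.

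Male livers gave the clearest pattern for Hsd17b2. The vehicle rats had 64.4, 57.1 and 78.8 CPM, the BPA rats 54.4, 38.8 and 40.1 CPM, and the Mix rats 185, 116 and 141 CPM. All 3 Mix livers lay above every other male liver, and all 3 BPA livers below every vehicle liver. Against vehicle the log2 fold change was 1.14 ± 0.22 (SE) in Mix (edgeR quasi-likelihood, adjusted p = 0.0459) and -0.59 ± 0.22 in BPA (adjusted p = 0.57), and the 2 treated groups differed by 1.73 ± 0.23 (adjusted p = 0.02). The Mix against vehicle call was narrow: it was lost with only those 2 groups in the fit (adjusted p = 0.0914) and without vehicle rat 1 or 2, BPA rat 1, 2 or 3, or Mix rat 1 or 3 in turn (adjusted p up to 0.244). Mix against BPA was lost without BPA rat 1, 2 or 3 or Mix rat 1 (adjusted p up to 0.207). Female livers showed no such separation. Their levels were 28.7, 24 and 39.4 CPM under vehicle, 25.8, 25.3 and 25.9 CPM under BPA and 23, 26.9 and 28.7 CPM under Mix. The interval of the female Mix change ran from -0.68 to 0.24 on the log2 scale. A test of the difference between the sexes gave -1.37 ± 0.31 for Mix, female minus male (adjusted p = 0.0858), which did not pass.

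Ovarian Hsd17b2 was low and fell in Mix rats. It was 6.17, 3.49 and 5.38 CPM under vehicle, 5.83, 1.21 and 8.81 CPM under BPA and 1.04, 0.659 and 1.12 CPM under Mix, the last from 8, 5 and 7 reads. Mix lay below both other groups in every library, while BPA spanned the vehicle range. The log2 fold change was -2.41 ± 0.69 for Mix (adjusted p = 0.0477) and 0.08 ± 0.62 for BPA (adjusted p = 0.96), and Mix minus BPA was -2.48 ± 0.69 (adjusted p = 0.15). The Mix call was lost without any vehicle or Mix rat and without BPA rat 1 or 3 (adjusted p up to 0.131). In testis the counts under Mix were 1, 0 and 0 reads against 17, 31 and 0 under vehicle and 17, 20 and 0 under BPA, and 1 testis of each of those groups had no read either. Male kidneys had 6.46 to 8.98 CPM under vehicle, 2.54 to 6.34 CPM under BPA and 1.03 to 9.91 CPM under Mix, with no difference that passed. Thyroids had at most 3.15 CPM.

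Hsd17b6, an oxidising enzyme that turns androstanediol back into dihydrotestosterone, was a liver gene. Vehicle livers had 149, 243 and 176 CPM in males and 245, 228 and 201.1 CPM in females, overlapping ranges, whereas kidney, testis, ovary and male thyroid libraries had at most 1.18 CPM in any treatment group. Male livers ranged from 149 to 365 CPM under BPA and from 212 to 266 CPM under Mix, across the vehicle range. In females BPA gave 212, 135 and 135 CPM and Mix 148, 308 and 307 CPM. The BPA change in females was -0.49 ± 0.27 (adjusted p = 0.52). Outside the liver, 2 vehicle female thyroids had 7.8 and 3.55 CPM and the other had no read. Those libraries summed to 3357, 1271 and 60.8 CPM over the 5 hepatocyte markers Alb, Apoa1, Ttr, Serpina1 and Cps1, against 10.8 to 115 CPM in the treated female thyroids; the part of hepatocyte RNA in these values was not tested.

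The third 17beta-enzyme, Hsd17b11, sits on lipid droplets and oxidises androgens of the androstanediol type. It was the only gene of the group with a substantial level in all organs. Vehicle means were 594 ± 75.6 CPM in male liver, 436 ± 77.9 CPM in female liver, 126.4 to 173 CPM in kidney, thyroid and ovary, and 43.6 ± 2.07 CPM in testis (SD, n = 3). Thyroid, kidney and ovary overlapped as neighbours in that order, and testis lay below all of them. Female livers spread most, with 522, 415 and 371 CPM under vehicle, 386, 673 and 476 CPM under BPA and 481, 477 and 514 CPM under Mix, which overlapped. In ovary the spread was small, and the vehicle levels were 133, 133 and 135 CPM, against 162, 170 and 151 CPM under BPA and 160, 165 and 163 CPM under Mix. Every treated ovary lay above every vehicle ovary, by 0.27 ± 0.12 and 0.28 ± 0.12 on the log2 scale, and neither change passed (adjusted p = 0.18 and 0.15). Male livers of Mix rats, 776, 751 and 850 CPM, also lay above the 3 vehicle livers, 583, 675 and 525 CPM, by 0.41 ± 0.18 (adjusted p = 0.73).

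Of the 2 ring reductases, Srd5a1 encodes 5alpha-reductase type 1, which saturates testosterone, progesterone and corticosterone. The 250 bases before its annotated start are shown because its ovarian calls held in every leave-one-out fit, printed 5′ to 3′ with matches to the GC box GGGCGG and to CCAAT in capitals.
Srd5a1: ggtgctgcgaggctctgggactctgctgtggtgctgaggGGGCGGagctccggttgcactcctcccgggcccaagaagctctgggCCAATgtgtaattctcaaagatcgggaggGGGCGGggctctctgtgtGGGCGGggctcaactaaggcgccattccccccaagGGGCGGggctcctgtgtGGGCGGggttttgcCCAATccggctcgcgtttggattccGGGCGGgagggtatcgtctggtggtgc
The window lies at chr1:35514664-35514913 on the plus strand of the rat build GRCr8, as RefSeq gives it. A search of both strands found 6 GC boxes and 2 CCAAT matches. Of the 33469 promoter windows of that length, 30.5% hold any GC box match and 34% any CCAAT match. The share of windows with as many matches was not counted. The same search looked for the TATA letters TATAAA, which have no match in the Srd5a1 window. The Nr5a half-site AAGGTCA has none either. Nor do the STAT motif TTCNNNGAA, the antioxidant motif TGACNNNGC and the glucocorticoid half-site TGTTCT. Matches are letters in a window and no evidence of binding.

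Srd5a1 was higher in female than in male vehicle liver and fell in exposed ovaries. Vehicle levels were ordered from female liver (754 ± 68.4 CPM) through male liver (129 ± 40 CPM) and ovary (66.9 ± 12.8 CPM; SD, n = 3 each), none of which overlapped, to female thyroid, kidney, male thyroid and testis, where neighbours overlapped. Ovaries had 77.4, 70.6 and 52.6 CPM under vehicle, 18.1, 24.7 and 34.8 CPM under BPA and 19.8, 22.7 and 21 CPM under Mix. No treated ovary reached the lowest vehicle ovary. The log2 fold change was -1.37 ± 0.23 in BPA (adjusted p = 0.00579) and -1.66 ± 0.23 in Mix (adjusted p = 0.0022), to 0.386 and 0.317 of the vehicle level. Both calls held in all 9 leave-one-out fits. Mix minus BPA was -0.28 ± 0.23 with a 95% interval from -0.79 to 0.22, so at this precision the groups were not told apart.

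In female liver Srd5a1 was 698, 831 and 734 CPM under vehicle, 224, 377 and 599 CPM under BPA and 239, 518 and 575 CPM under Mix. All 6 treated livers lay below the 3 vehicle livers, but the treated rats varied widely. The 5 hepatocyte markers summed to 105215 to 122415 CPM in the vehicle livers, 67232 to 73184 CPM under BPA and 56335 to 97248 CPM under Mix, also without overlap, and their part in the result was not tested. The median log2 change of those 5 markers was -0.27 in BPA and -0.02 in Mix. The changes of -0.92 ± 0.34 and -0.76 ± 0.34 did not pass (adjusted p = 0.29 and 0.71). Male livers overlapped, with 91.6, 171 and 124 CPM under vehicle, 74.6 to 144 CPM under BPA and 53.3 to 134 CPM under Mix. Female thyroids had 12.2, 20.9 and 29.2 CPM under vehicle, 3.91, 5.88 and 12.3 CPM under BPA and 6.24, 10.8 and 8.11 CPM under Mix. In male thyroids the BPA levels of 7.87, 10.4 and 10.4 CPM overlapped with the vehicle levels of 3.05, 5.92 and 8.19 CPM. The female minus male difference of the BPA effect in thyroid was -2.23 ± 0.69 (adjusted p = 0.23) and did not pass. Thyroid libraries also differed in other tissues' markers. In female vehicle thyroids the adipocyte list reached 5528 CPM, skeletal muscle 4028 CPM, germ cells 3158 CPM and hepatocytes 3357 CPM, and the thyroid follicular list summed to 28915 to 49157 CPM against 49513 to 77208 CPM in treated ones. A male BPA thyroid had germ cell markers at 12791 CPM. The part of these tissues in the Srd5a1 values was not tested. Testes kept to 3.36 to 4.76 CPM in all 9 libraries and kidneys to 5.04 to 16.7 CPM.

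Akr1d1 encodes 5beta-reductase, the enzyme that bends the steroid nucleus for bile acid synthesis and clears hormones with a 4-ene-3-ketone. Outside the liver it reached at most 4.6 CPM, in the ovary of vehicle rat 2, a library whose hepatocyte markers summed to 374 CPM against 12 to 211 CPM in the other ovaries. Male livers had 371, 499 and 514 CPM under vehicle, 421, 528 and 530 CPM under BPA and 394, 467 and 922 CPM under Mix. Female livers had 246, 236 and 177 CPM under vehicle, 130, 110 and 239 CPM under BPA and 178, 208 and 222 CPM under Mix. Treated and vehicle ranges overlapped in both sexes, with log2 fold changes from -0.47 to 0.36 and adjusted p-values of 0.52 to 0.98.

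Akr1b7 belongs to the aldose reductase branch of the aldo-keto reductases. It reduces aldehydes, including the one released when cholesterol's side chain is cut, and is known from steroid-making tissue. Its upstream window is shown because it moved with Srd5a1 in the ovary, with a TGTTCT and a CCAAT match in capitals.
Akr1b7: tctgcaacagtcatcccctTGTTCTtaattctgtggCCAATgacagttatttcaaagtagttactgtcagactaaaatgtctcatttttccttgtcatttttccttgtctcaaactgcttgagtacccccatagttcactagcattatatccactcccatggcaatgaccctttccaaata
The 181 bases lie at chr4:64043720-64043900 on the plus strand of GRCr8 in RefSeq. TGTTCT occurs in 12.9% and CCAAT in 26.1% of windows of that length. The GC boxes of the Srd5a1 window have no match here.

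In ovary Akr1b7 had 48, 49.8 and 30.3 CPM under vehicle, 17.3, 10.4 and 2.89 CPM under BPA and 13.4, 5.54 and 11.3 CPM under Mix. Every treated ovary lay below every vehicle ovary. The log2 fold change was -2.05 ± 0.48 in BPA (adjusted p = 0.0249) and -2.08 ± 0.48 in Mix (adjusted p = 0.0198), about 0.242 and 0.236 of vehicle, and the 2 treated groups differed by -0.03 ± 0.48 with an interval from -1.08 to 1.01. The BPA call was lost without vehicle rat 1 or 2 or BPA rat 2 or 3 (adjusted p up to 0.0877), and the Mix call without vehicle rat 2 or Mix rat 1 or 3 (adjusted p up to 0.0751). Since Akr1b7 is also an adrenal gene, the adrenal cortex markers were read in the same libraries. The 5 markers summed to 233 to 258 CPM in vehicle ovaries, 120 to 191 CPM under BPA and 193 to 208 CPM under Mix. Of that sum Mrap, an accessory protein of the ACTH receptor, gave 231 to 256 CPM under vehicle, 116 to 190.3 CPM under BPA and 193 to 208 CPM under Mix. The adrenal enzymes Cyp11b1 and Cyp11b2 were at 0 in all treated ovaries and at most 0.368 and 0.489 CPM in vehicle ovaries. Cyp21a1 had 1.79 to 2.39 CPM under vehicle, 1.03 to 3.49 CPM under BPA and 0 to 3.24 CPM under Mix. Mc2r had at most 1.47 CPM under vehicle, 0 under BPA and at most 0.638 CPM under Mix. The part of adrenal RNA in the ovarian Akr1b7 values was not tested.

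**Figure D2:**
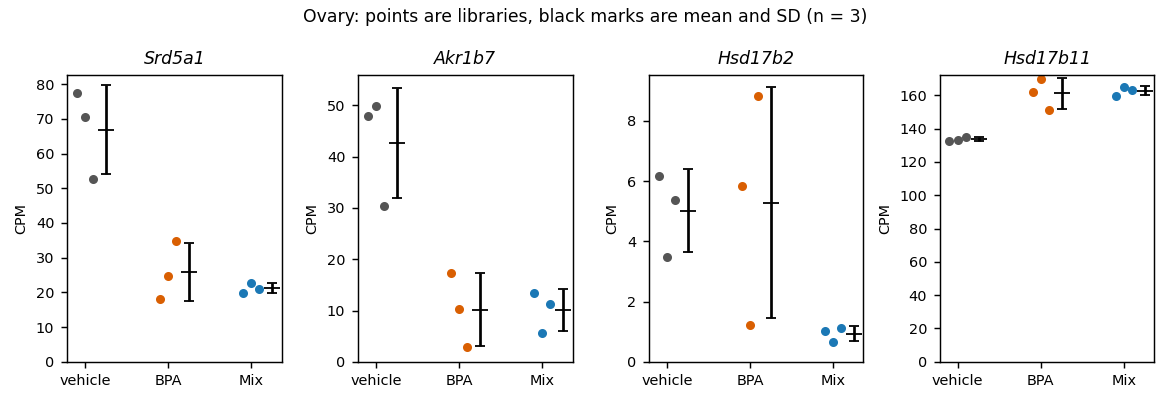
Srd5a1, Akr1b7, Hsd17b2 and Hsd17b11 in ovary, as CPM on a linear axis from 0, by treatment; points are libraries and black marks the mean and SD of 3. Srd5a1 and Akr1b7 are lower in all 6 treated ovaries, Hsd17b2 is low in the 3 Mix ovaries, and Hsd17b11 is slightly higher in all treated ovaries.

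In female liver the Akr1b7 values lay in the same direction. Vehicle rats had 288, 281 and 202.6 CPM, BPA rats 138, 144 and 108 CPM and Mix rats 127.9, 123 and 103 CPM, with no overlap. The changes of -0.99 ± 0.20 and -1.12 ± 0.21 were just short of passing in edgeR (adjusted p = 0.0529 and 0.0695), and DESeq2 called both (adjusted p = 0.000694 and 0.00014). With a 20-count filter edgeR called the BPA change as well (adjusted p = 0.048). The hepatocyte marker sums given for Srd5a1 were lower in the same 6 livers, and their part was not tested. Female kidneys had 25.4 and 56.7 CPM under vehicle, 1.27 and 7.1 CPM under BPA and 43, 27.9 and 16.5 CPM under Mix. Both BPA kidneys lay below all others, and the change of -3.34 ± 0.72 did not pass in edgeR (adjusted p = 0.15) but did in DESeq2 (adjusted p = 0.000131). In male liver the gene had 0 to 3 reads per library in all groups. Testis was low, with groups that did not overlap in CPM: 6, 8 and 9 reads under vehicle, 4, 4 and 2 under BPA and 13, 12 and 9 under Mix, and the gene was below the count filter there. Male thyroid held 2 isolated values, 5.96 CPM in vehicle rat 1 and 12.7 CPM in BPA rat 3, where the adrenal markers summed to 25.4 and 18 CPM against 5.4 to 9.69 CPM in the other male thyroids; the part of adrenal RNA was not tested. Female thyroids had at most 0.585 CPM.

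Akr1c2 belongs to the aldo-keto reductases that act on the 3- and 20-keto groups of steroids. Members of this family are near-identical in sequence and how reads with several alignments were counted is not stated, so the value of any single Akr1c gene is uncertain. Its upstream window is shown because the gene was either high or close to 0 from one female rat to the next, with the TTCNNNGAA matches in capitals.
Akr1c2: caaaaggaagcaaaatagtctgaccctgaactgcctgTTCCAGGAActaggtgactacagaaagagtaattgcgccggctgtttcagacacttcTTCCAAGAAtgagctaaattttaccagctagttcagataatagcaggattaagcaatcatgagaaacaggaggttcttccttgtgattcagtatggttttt
The 195 bases lie at chr17:70717936-70718130 on the minus strand of GRCr8 in RefSeq. The window holds 2 TTCNNNGAA matches, a motif present in 6.16% of windows of that length.

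Female livers fell into 2 sets. Vehicle rats had 1.4, 257 and 2.14 CPM, BPA rats 124, 98.2 and 264 CPM, and Mix rats 1.18, 0.629 and 2.48 CPM. No female liver lay between 2.48 and 98.2 CPM. All 3 BPA rats and 1 of 3 vehicle rats were high, and all 3 Mix rats and the other vehicle rats were low. Kidneys of the same females followed their livers. The vehicle rat with 257 CPM in liver had 263 CPM in kidney, and a low one had 0.32 CPM. The 2 BPA kidneys had 241 and 284 CPM and the 3 Mix kidneys 0.145, 0 and 0.591 CPM. Of the 7 females with both organs, 3 were high in both, 4 low in both and 0 differed, a split at 90 and 5 CPM that was set after the values were seen. Testis and thyroid had at most 0.609 CPM in any library. In ovary the high vehicle rat had 10.48 CPM, and the other 8 ovaries, those of the high BPA rats included, 0 to 2.29 CPM. That vehicle ovary also had the highest marker sums of all ovaries for hepatocytes, 374 CPM, and for testis germ cells, 578 CPM. The part of foreign RNA in its Akr1c2 value was not tested.

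The groups of 3 could not settle such a split. Mix against BPA in female liver rested on 37 reads against 3810, a ratio of 105 with a 95% counting interval from 76.4 to 150, and the log2 fold change of -6.79 ± 1.54 did not pass in edgeR (adjusted p = 0.24) but did in DESeq2 (adjusted p = 0.0127). In female kidney it was 5 reads against 2571, a ratio of 1016 with an interval from 435 to 3132. These intervals cover counting error only and not the spread between rats, and a vehicle rat was high as well. The cause of the split was not tested.

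Male livers were graded rather than split. Vehicle rats had 20.3, 20.8 and 28.9 CPM, BPA rats 231, 175 and 154 CPM and Mix rats 13.9, 86 and 112.4 CPM. The BPA livers lay above all others, and the Mix livers included the lowest value of the 9. Akr1c2 was higher in BPA than in vehicle livers by 3.00 ± 0.51 on the log2 scale, 8.01-fold (adjusted p = 0.0199). Mix gave 1.60 ± 0.49 (adjusted p = 0.35), and Mix minus BPA was -1.40 ± 0.48 with an interval from -2.42 to -0.38 (adjusted p = 0.63). The BPA call was lost when vehicle rat 1 or 2 or any BPA rat was left out (adjusted p up to 0.146). Ribosomal RNA rows took 2.72%, 2.5% and 23.4% of the counts in the vehicle livers. They took 19.2%, 15.4% and 7.69% in the BPA livers and 19.7%, 12% and 4.59% in the Mix livers. The BPA call passed with those rows removed, a refit that cannot take out a difference in RNA quality between libraries. The part of such a difference was not tested. Male kidneys had 0.303, 0 and 17.2 CPM under vehicle, 47.9, 30.3 and 42.8 CPM under BPA and 0.206, 10.8 and 11.2 CPM under Mix. Those with 0.303, 0 and 0.206 CPM came from the rats with the lowest male livers, 20.3, 20.8 and 13.9 CPM in that order. All 3 BPA kidneys were the highest, and the change of 2.81 ± 1.23 did not pass (adjusted p = 0.22). In that organ the ribosomal share was 37.2%, 16.4% and 36.9% under BPA and 1.71% to 3.5% under vehicle; its part was not tested. A test of the sex difference of the Mix effect in liver gave -7.50 ± 1.70, female minus male (adjusted p = 0.0889). Over all 6 tests of such a difference, for BPA and Mix in liver, kidney and thyroid, 0 of 32 results for these genes passed in edgeR, where 0.878% of all rows did (in liver 0.209% for BPA and 0.189% for Mix, in kidney 4.73% and 0.00858%, in thyroid 0%). Of those, 6 had an unadjusted p below 0.05, and DESeq2 called 2, both for Mix in liver. Over all rows, the number below that level in edgeR ran from 636 of 10044 (Mix, liver) to 2755 of 11651 (BPA, kidney). The share of all rows called by DESeq2 is not reported here.

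Akr1c1 stands close to Akr1c2 on the chromosome, with 1 step between their RefSeq protein-coding entries, and it was the gene whose liver level followed Akr1c2 best. Pearson's r of log2 CPM over the 18 liver libraries was 0.927, points that share organ, depth range and groups, and that could also share reads. Akr1c1 was 42.2 to 76.1 CPM in the 4 females with high Akr1c2 in liver and 4.15 to 6.74 CPM in the 5 with low Akr1c2. The kidneys of the low females still held 91.7 to 187 CPM of Akr1c1, against 430 to 484 CPM in the high ones.

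**Figure D3:**
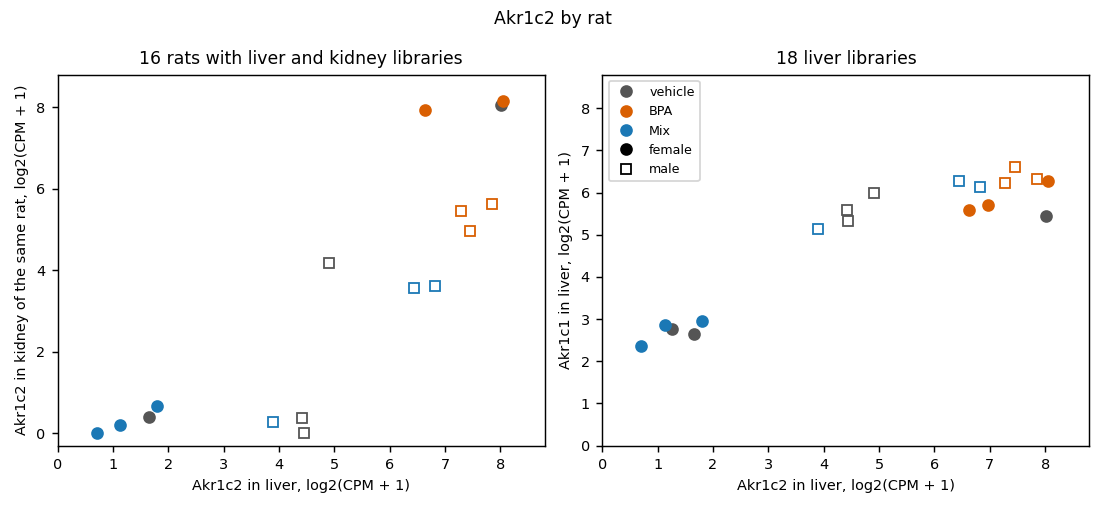
Left, Akr1c2 in kidney against Akr1c2 in liver of the same rat for the 16 rats with both organs; right, Akr1c1 against Akr1c2 in 18 livers; both axes are log2(CPM + 1), filled circles are females, open squares males, colours are treatments. Females form a high and a low cluster in both organs, while male livers range from 13.9 to 230.5 CPM of Akr1c2.

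**Figure D4:**
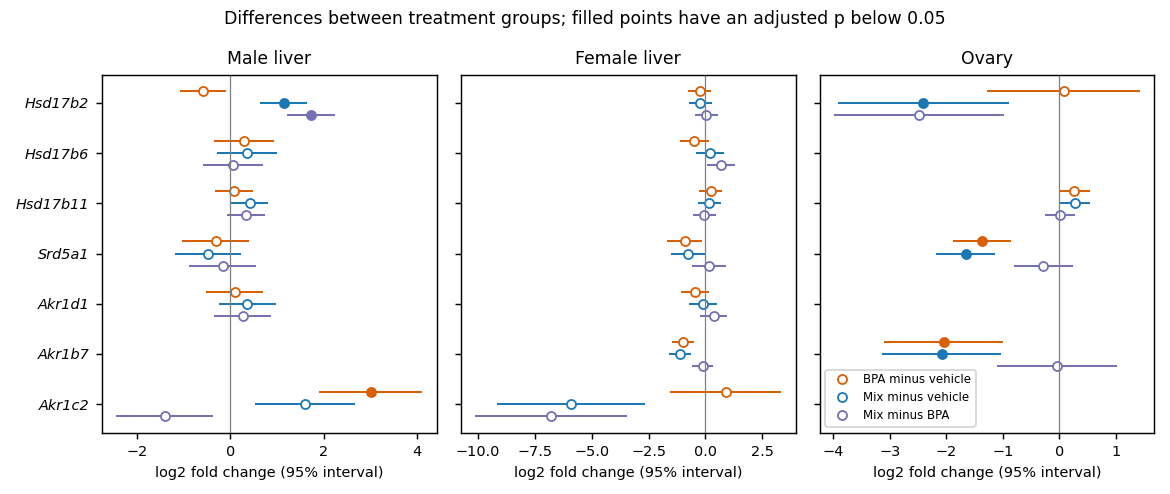
Log2 fold changes with 95% intervals for each gene tested in male liver, female liver and ovary, for BPA minus vehicle, Mix minus vehicle and Mix minus BPA; filled points passed at an adjusted p below 0.05. In ovary Srd5a1 and Akr1b7 lie left of 0 in both treated groups with overlapping intervals, and in male liver Hsd17b2 lies right of 0 for Mix against both other groups.

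Between untreated females and males, 5 results for these genes passed in edgeR, in liver and kidney, of 16 tested in 3 organs. In liver 4 of the 7 genes tested passed, against 4.23% of all rows in liver and 3.38% over the 3 organs. Akr1b7 was the extreme case, with 5813 reads in the 3 female livers against 3 in the male ones. Those reads give a ratio of 2650 with a counting interval from 906 to 12856. The edgeR log2 difference of Akr1b7 was 11.16 ± 0.54 (adjusted p = 2.57e-12). Srd5a1 was also higher in females, by 2.55 ± 0.39 on the log2 scale or 5.85-fold (adjusted p = 0.000194). Hsd17b2 was lower in females by a log2 difference of -1.12 ± 0.22 (adjusted p = 0.00313) and Akr1d1 by -1.07 ± 0.29 (adjusted p = 0.0394). In each of these 4 the vehicle females and males did not overlap. The same held for Hsd17b11, whose difference did not pass, and the share of all rows without overlap was not counted. The Akr1d1 call was the weakest, lost without any vehicle female, vehicle male 2 or 3, BPA male 2 or Mix female 2 (adjusted p up to 0.167). Hsd17b11 differed by -0.45 ± 0.20 (adjusted p = 0.26), Hsd17b6 by 0.25 ± 0.30 (adjusted p = 0.77) and Akr1c2 by 1.89 ± 1.04 (adjusted p = 0.40).

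In kidneys, which come from the same rats as livers above, Akr1b7 was also higher in females. It was the 1 gene of 6 tested to pass there, against 6.13% of all rows. The edgeR log2 difference was 9.68 ± 1.08 (adjusted p = 0.000108). The reads were 475 in 2 female kidneys against 1 in 3 male ones, a ratio of 1367 with a counting interval from 244 to 54122. Ribosomal RNA rows took 37.1% and 19.2% of the counts in these female kidneys and 1.71% to 3.5% in the male ones. In the vehicle livers they took 13.9% to 24.2% in females and 2.72%, 2.5% and 23.4% in males. The part of these shares in the sex differences was not tested. None of 3 genes tested passed in thyroid in edgeR, where 0% of rows passed and 1257 rows had an unadjusted p below 0.05. Srd5a1 was the 1 gene of the 3 with an unadjusted p below that level, 1.85 ± 0.50 higher in female thyroid (adjusted p = 0.36).

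**Figure D5:**
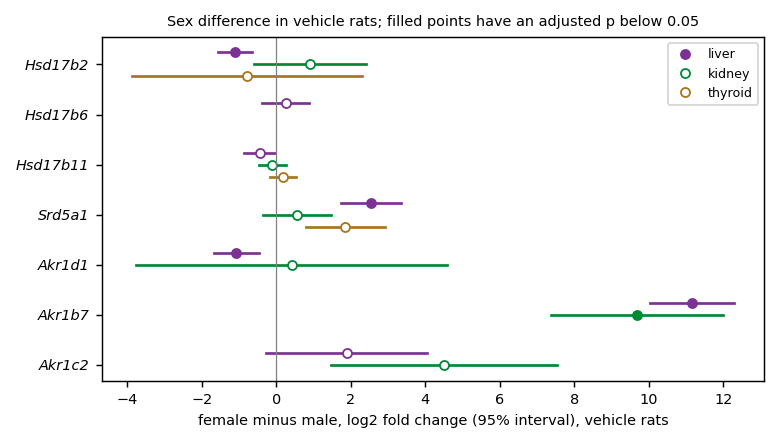
Female minus male log2 fold change with 95% interval in vehicle rats for each gene tested in liver, kidney and thyroid; filled points passed at an adjusted p below 0.05. Akr1b7 lies far to the right in liver and kidney, Srd5a1 to the right in liver, and Hsd17b2 and Akr1d1 to the left in liver.

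Among the wider pathway lists in liver, most sex differences that passed were P450, conjugation and 3beta- or 11beta-dehydrogenase genes; 4.23% of all rows passed. Of the 3beta- and 11beta-dehydrogenases, 4 of 5 tested were lower in females and 0 higher, with a median log2 difference of -4.07 against -0.02 over all rows. Hsd11b1, which regenerates active glucocorticoid, was 362 ± 71.5 CPM in vehicle males and 21.6 ± 3.16 CPM in vehicle females (SD, n = 3). Hsd3b5, a liver enzyme that reduces androgens, was 275 ± 29.1 CPM in males and 0.136 ± 0.147 CPM in females. Among the steroid-hydroxylating cytochromes P450 listed, 7 of 14 were lower and 4 higher in females (median -1.38), led by Cyp2c11 at -10.89 ± 0.69. Steroid conjugation split: the estrogen sulfotransferase Sult1e1 was 213 ± 77.1 CPM in males and had no read in vehicle females, while Sult2a2, Sult2a6, Sult2a1 and Ugt2b10 were higher in females (4 higher and 1 lower of 12, median 0.38). Of the remaining 17beta-dehydrogenases 1 of 9 was lower (Rdh16, -1.37 ± 0.31) and of the remaining aldo-keto reductases 2 of 12 were lower (Akr1c3 and Akr1c13) and 0 higher. In bile acid synthesis 3 of 12 were lower, Cyp7a1, Hsd3b7 and Acox2. No steroid receptor of 3 passed in edgeR.

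Few listed genes passed in treated livers. In males 1 listed gene passed against vehicle in either group: Cyp7a1, which opens the classical route from cholesterol to bile acids, at -3.78 ± 0.53 in BPA (adjusted p = 0.00805). In females Hsd11b1 rose by 2.61 ± 0.40 in BPA (adjusted p = 0.0141), from 21.6 ± 3.16 to 132 ± 73.8 CPM, and no other listed gene passed in either treated group. The 3 genes of the 3beta- and 11beta-list tested there had a median log2 change of 1.47 in BPA and 1.07 in Mix, against 0.00 over all rows. The BPA effect differed between the sexes, female minus male, for Ugt2b10 (-1.88 ± 0.33, adjusted p = 0.0161) and Cyp2a1 (-1.63 ± 0.32, adjusted p = 0.0307). Female liver as a whole had 40 of 9554 rows past the threshold in BPA (0.419%), 5 in Mix (0.0523%) and 0 between the treated groups.

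In ovary the other pathway genes were read beside 6.79% of all rows passing in BPA and 9.12% in Mix. Of 12 gonadal synthesis genes tested, 5 rose and 2 fell in BPA ovaries, with a median of 0.55 against 0.01 over all rows. Cyp17a1, which makes androgens, went from 3.35 ± 1.67 CPM to 134 ± 81.8 CPM (5.30 ± 0.52, adjusted p = 0.000437). The luteinising hormone receptor Lhcgr went from 2.93 ± 1.78 to 36.8 ± 12.6 CPM, and the aromatase Cyp19a1 rose by 1.60 ± 0.41. The follicle-stimulating hormone receptor Fshr and Hsd17b7, which makes estradiol from estrone, rose too, and Star and Fdx1 fell. In Mix ovaries 4 of 12 rose and 0 fell, Cyp17a1 (5.66 ± 0.52), Lhcgr (3.62 ± 0.46), Hsd17b7 (2.50 ± 0.28) and Cyp19a1 (2.23 ± 0.41), with a median of 0.54. Hsd17b7 rose where Srd5a1 and Akr1b7 fell, from 4.18 ± 0.0967 CPM under vehicle to 12.4 ± 2.85 CPM under BPA and 23.8 ± 5.47 CPM under Mix.

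Among the other aldo-keto reductases and dehydrogenases in ovary, Akr1c3, which RefSeq also lists as Akr1c18, the 20alpha-dehydrogenase that clears progesterone, fell by 1.14 on the log2 scale in BPA (SE 0.24, adjusted p = 0.0156), from 9749.7 ± 1483 to 4414 ± 1214 CPM. Hsd11b1 went from 49.7 ± 4.14 to 19.6 ± 13.5 CPM in BPA (-1.33 ± 0.34, adjusted p = 0.038). Akr1b1, the aldose reductase, rose by 1.00 ± 0.16 in BPA and was lower in Mix than in BPA by the same size (-1.001 ± 0.16, adjusted p = 0.0286). In Mix Akr1e2 fell (-1.22 ± 0.25), and Sts (1.60 ± 0.30), the sulfatase that frees steroids from their sulfates, and the glucuronosyltransferase Ugt2b10 (2.57 ± 0.69) rose. Counted by list, the remaining aldo-keto reductases gave 1 higher and 1 lower of 12 in BPA and 0 and 1 in Mix, with medians of -0.32 and -0.07, and no steroid receptor of 4 passed.

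Cell type markers moved in the same ovaries. Of 5 granulosa markers tested 4 were higher in BPA, Cyp19a1, Fshr, Amh and Inhba, where 6.79% of all rows passed. In Mix 1 was higher, Cyp19a1, where 9.12% of all rows passed. Cyp19a1 and Fshr are also among the gonadal synthesis genes counted above. The 5 granulosa markers summed to 983 to 1454 CPM under vehicle, 1551 to 2860.1 CPM under BPA and 1130.2 to 1561 CPM under Mix. The luteal list summed to 2025 to 2324 CPM under vehicle, 1332 to 1753 CPM under BPA and 2584 to 3404 CPM under Mix. That sum does not hold the Akr1c3 row described above, which RefSeq also lists as the luteal marker Akr1c18. The mean of that row exceeded the whole sum under vehicle and BPA. Hepatocyte markers summed to 211, 374 and 19.2 CPM in the vehicle ovaries and 12 to 116 CPM in treated ones. The part of cell composition in the changes of Srd5a1, Akr1b7 and Hsd17b2 was not tested.

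By likeness of profile over the 24 groups, the genes closest to Srd5a1 were Hamp (r = 0.952) and Slc38a4 (r = 0.935), to Hsd17b2 Ccbl2 (r = 0.924) and Ddt (r = 0.922), and to Akr1b7 A1bg (r = 0.789) and Cacybp (r = 0.763). Within the 18 livers the closest to Akr1b7 was A1bg (r = 0.987). The closest to Srd5a1 there were Cxcl14 (r = 0.935) and Acsl4 (r = 0.933), to Hsd17b2 Car3 (r = 0.902) and Tymp (r = 0.881), and to Akr1d1 Cyp2c13 (r = 0.931) and Hao1 (r = 0.922). Hsd17b6 had no liver neighbour above r = 0.721, while over the groups Serpind1 reached 0.998. These are Pearson correlations of log2 CPM, chosen as the highest of 9730 rows over groups and 6952 rows over livers. The libraries share organ and sex, so they describe shared profiles.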

How the data were processed

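RNA was extracted with TRIzol and made into QuantSeq 3′ libraries, per the labels' protocols. The authors deposited 1 table of read counts per gene for the 70 libraries, and the submitters' processing notes name FastQC, Bowtie2, bedtools, edgeR and the build rn6; how reads with several alignments or on the opposite strand were counted is not given in the sources used here. Every sample column of the table was matched to a label.

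The counts were tested with edgeR 4.0.16 in R 4.3.3 by the quasi-likelihood test, after filterByExpr and TMM scaling, in 1 fit per organ and sex with all 3 treatments. Sex differences and sex-by-treatment interactions came from 1 fit per organ with 6 groups. P-values were adjusted by Benjamini-Hochberg over all rows tested. Printed CPM are TMM-scaled over all libraries of an organ, and plots add a pseudocount of 1. DESeq2 1.42.0, other scalings and filters, a replicate block and leaving out each library were tried as alternatives, and the tests were run on simulated data first. Intervals on ratios of reads cover counting error only.

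The 7 genes and the pathway and marker lists were chosen with earlier results of these data known. Of the lists, up to 4 called genes each are given with values. A correlation search named the 2 rows closest to each gene, among rows with a mean of at least 5 CPM; not every such row is reported here. Replicate numbers were not taken to pair the samples, since in no fit did every same-number pair have deviations correlated above 0.1 (6 of 9 pairs did in male kidney, 2 of 9 in female thyroid, 1 of 9 in male thyroid and 0 in the others). Upstream windows come from RefSeq, where 4 of the 7 genes had an entry and 3 windows lie before the annotated gene.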

Additional observations from a re-analysis of the deposited data

Results flagged for a closer look

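Hsd17b2 moved in opposite directions in the kidneys of the sexes under BPA. Both treated female kidneys, 26.1 and 27 CPM, lay above both vehicle ones, 25.6 and 2.56 CPM, for a log2 fold change of 0.95, and all 3 treated male kidneys, 2.57, 6.34 and 2.54 CPM, lay below the vehicle ones, 6.46, 6.81 and 8.98 CPM, for a log2 fold change of -0.92. The difference between the sexes, tested as an interaction in edgeR, was 1.86 ± 1.05 (SE) with an unadjusted p of 0.0929 and an adjusted p of 0.292, and did not pass. The 2 female vehicle kidneys differ from each other more than the treated ones do from the higher of them.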

How the results depend on the processing

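Of 250 refits of the 13 results that passed, 210 kept their call, 40 kept the direction and lost the call, and 0 changed direction. The count of 8 treatment calls became 16 with DESeq2, 19 without a low-count filter and 10 with only the groups compared in the fit. It was 8 with RLE scaling and without ribosomal RNA rows, an alternative chosen after seeing the data. It was also 8 with a 20-count filter, which left ovarian Hsd17b2 untested and added Akr1b7 in female liver under BPA (adjusted p = 0.048). With a replicate block it was 7, since Hsd17b2 in male liver under Mix had a log2 fold change of 1.12 (edgeR, adjusted p = 0.0537). Leaving out 1 library gave 5 to 13 treatment calls, 5 without male liver BPA rat 1, 2 or 3 or ovary vehicle rat 2, and 13 without female kidney vehicle rat 1. The 5 sex calls ranged from 4 to 6 when 1 library was left out and were 7 without a low-count filter. The count of 0 interaction calls became 2 with DESeq2 and 2 without a filter, and 0 to 1 with 1 library left out, being 1 without male liver vehicle rat 3, female liver vehicle rat 1 or 3, female kidney vehicle rat 1 or female thyroid vehicle rat 1. Except where fewer samples or another filter define the setting, the cause was not tested. The interaction was not refitted with only the groups compared. Shares of all rows called in these refits are not reported here. Groups of 2 or 3 rats limit what could pass.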
